A study of Mus musculus with 2 samples.

Results

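The comparison described here is pressure overload of the wild-type (WT) heart, read in the CD45+ cells, the leukocytes, of hearts taken 1 week after surgery. Male C57BL/6N mice of 8 weeks underwent transverse aorta constriction (TAC), in which a suture is tied around the aortic arch against a 27-gauge needle, or a sham operation without constriction. Cells of each group carried their own hashtag, an oligonucleotide on an antibody that marks the group, and were pooled, captured on BD Rhapsody and sequenced as 1 whole-transcriptome TAS-Seq library. Mice lacking CD3e, the T cell receptor subunit without which T cells do not form, had the same 2 operations and are used here only for side-by-side values. The members were chosen by hashtag and by 2 cell filters, at least 500 genes with a read and at most a 0.4 share of mitochondrial reads. They were 2615 of the 5363 columns of the matrix, 1000 WT sham cells and 1615 WT TAC cells. A second, narrower population held the cells with at least 200 counts per 1000000 (CPM) of Csf1r, the receptor for macrophage colony-stimulating factor, and 2000 CPM of Lyz2, lysozyme of monocytes and macrophages: 565 sham and 1095 TAC cells, called Csf1r and Lyz2 cells below. Each group was 1 pooled sample, so no test was possible, and the number of hearts per pool was not given in the sources used here.

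Pressure overload makes the left ventricle thicken, and leukocytes gather in the wall within days. The healthy heart holds macrophages that maintain themselves, marked by Lyve1, Folr2 and Cd163 and low in the chemokine receptor Ccr2, and macrophages that are refilled from blood monocytes, which carry Ccr2 and Ly6c2. Type I interferons signal through their receptor to a set of antiviral genes such as the Ifit family, Isg15 and Irf7, and immediate early genes such as Fos, Egr1 and Atf3 are transcription factors that answer many stimuli within minutes.

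The 2 groups held 95717220 and 208758777 reads. The median cell had 75442 reads and 3418.5 genes in sham and 98869 reads and 4074 genes in TAC, so shares of cells were taken after thinning each cell to 34802 reads, which left out 128 sham and 134 TAC cells. Counting intervals were narrow: for genes with at least 50 CPM in both groups the exact Poisson interval reached at most 2.84% either side of the level in all cells and 3.82% in Csf1r and Lyz2 cells, and it covers counting error of reads only, not differences between hearts. The leukocyte gene Ptprc (CD45) was at 979 CPM in sham and 1056 CPM in TAC, and 12 cardiomyocyte genes summed to 58.8 and 41.0 CPM. The Y-linked gene Ddx3y (127 and 117 CPM) and Xist (1.43 and 1.45 CPM) were as labelled for male mice in both groups. In Csf1r and Lyz2 cells, F4/80 (Adgre1) stood at 441 and 427 CPM and the macrophage lysosomal glycoprotein Cd68 at 568 and 715 CPM.

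Among 3881 genes with at least 50 CPM in either group, 58 were at least 2-fold higher after TAC and 72 at least 2-fold lower, or 1.49% and 1.86%. These ratios carry 10 CPM added to both groups, which understates the difference of low genes. Within Csf1r and Lyz2 cells 53 of 3719 genes were higher and 37 lower (1.43% and 0.995%). In the 435 sham and 520 TAC cells outside that population, 102 of 4126 were higher and 140 lower (2.47% and 3.39%), and in 33 of those 140 a single sham cell gave over 20% of the sham reads. The median log2 ratio over all genes measured was 0.04 in all cells and 0.04 in Csf1r and Lyz2 cells. Both populations shared 46 of the genes that were higher, 79.3% of the list in all cells and 86.8% of that in Csf1r and Lyz2 cells. They shared 20 of the genes that were lower, 27.8% and 54.1%. The 2 populations are nested, so part of this overlap was fixed in advance. Csf1r and Lyz2 cells gave 53153125 of the 95717220 sham reads and 140198437 of the 208758777 TAC reads. Most genes lower in all cells were not among those lower within Csf1r and Lyz2 cells.

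**Figure D1:**
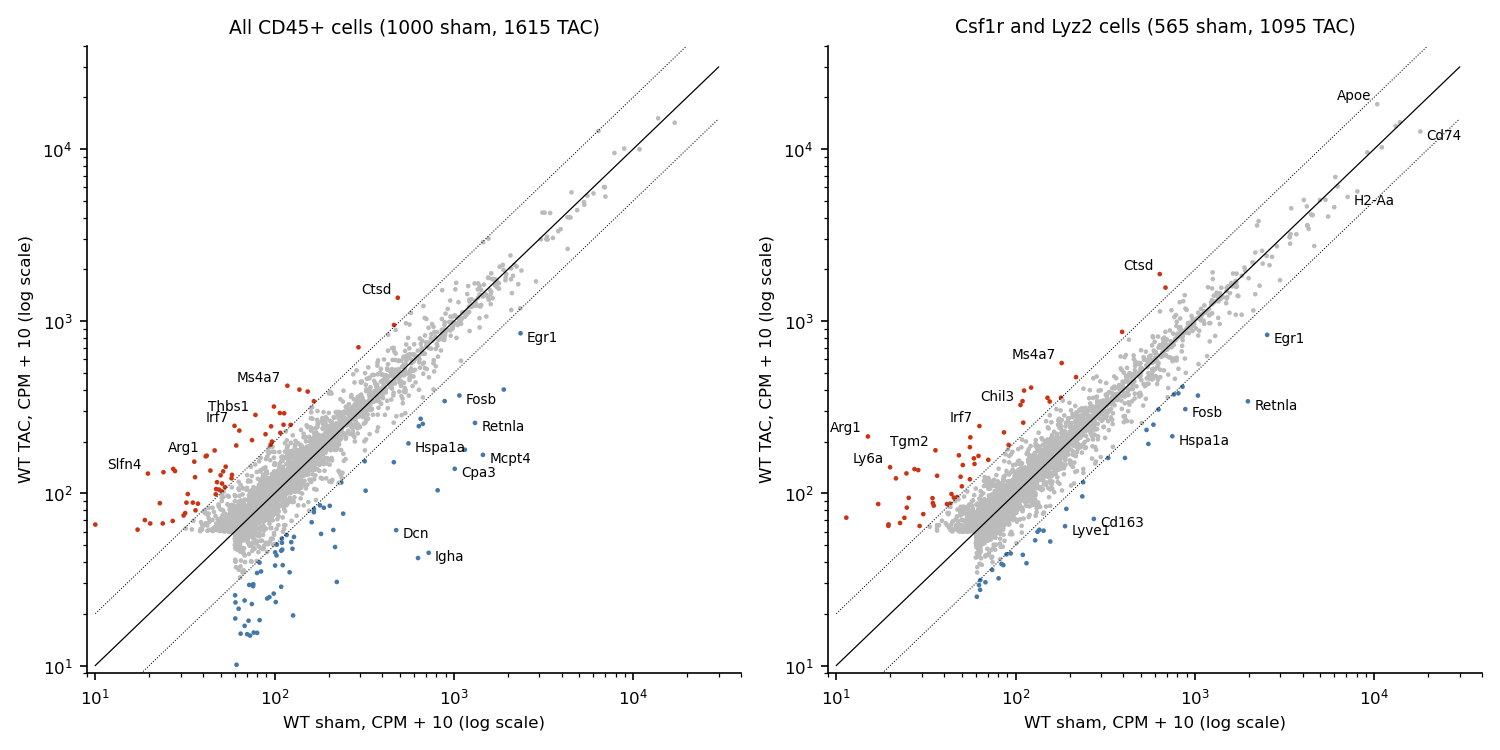
Level of each measured gene in WT sham (horizontal, CPM + 10, log scale) and WT TAC (vertical, CPM + 10, log scale), in all CD45+ cells on the left and in Csf1r and Lyz2 cells on the right. The solid line marks equal levels and the dotted lines 2-fold, red points are at least 2-fold higher and blue points at least 2-fold lower after TAC, so that mast cell genes (Mcpt4, Cpa3) lie low only on the left while Egr1, Fosb and Retnla lie low in both.

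Cell make-up came first. A gate here is a pair of marker levels, not a cell type. Csf1r and Lyz2 cells made up 58.0% of thinned sham cells (506 of 872, exact binomial interval 54.7 to 61.3%) and 69.1% of TAC cells (1024 of 1481, 66.7 to 71.5%). Several lymphoid gates were smaller after TAC. Cells with Gata3 and Il1rl1, a factor and the IL-33 receptor of type 2 innate lymphoid cells, were 4.24% (3.005 to 5.80%) in sham and 0.473% (0.190 to 0.971%) in TAC. Cells with Ncr1 and Klrb1c, receptors of natural killer cells, were 2.29% (1.41 to 3.52%) and 0.675% (0.324 to 1.24%). For both of these the intervals did not overlap. These intervals and those below cover counting error over the cells of 1 pool per group only, not differences between hearts. Without thinning, 7 of 39 sham and 6 of 8 TAC cells of the Gata3 and Il1rl1 gate also passed limits on Cd3g and Trbc2. For the Ncr1 and Klrb1c gate these were 7 of 21 and 3 of 12. Neither gate thus held innate lymphoid cells alone, and most of the few Gata3 and Il1rl1 cells after TAC carried T cell receptor genes.

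Cells with Cd3g and Trbc2, subunits of the T cell receptor complex, were 5.16% (3.79 to 6.84%) in sham and 2.90% (2.11 to 3.89%) in TAC, and cells with Cd79a and Ms4a1, genes of B cells, were 7.45% (5.80 to 9.40%) and 4.86% (3.82 to 6.08%). These intervals overlapped, as did those of both dendritic cell gates. The gate on Xcr1 and Clec9a, marks of cross-presenting dendritic cells, held 2.98% and 3.38%, and the gate on Cd209a and Flt3, of the other conventional dendritic cells, held 4.93% in each group. Cells with S100a8 and Csf3r, genes of neutrophils, numbered 0 of 872 in sham, which allows a share of up to 0.344% by the floor of 3 counts and 0.422% by the exact interval, and 7 of 1481 (0.473%) in TAC. Without thinning the shares were 56.5% and 67.8% for Csf1r and Lyz2 cells, 3.90% and 0.495% for Gata3 and Il1rl1 cells, 2.1% and 0.743% for Ncr1 and Klrb1c cells and 9.0% and 5.94% for Cd79a and Ms4a1 cells. Among the thinned Cd79a and Ms4a1 cells outside the Csf1r and Lyz2 limits, 64 in sham and 68 in TAC, which serve as background for shares of cells, 1 TAC cell (1.47%) and no sham cell passed the limits on Gata3 and Il1rl1, and the same held for Cd3g and Trbc2. A smaller share of one gate cannot be told apart from more cells of another, and in summed levels fewer cells of a type cannot be told apart from less RNA per cell.

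**Figure D2:**
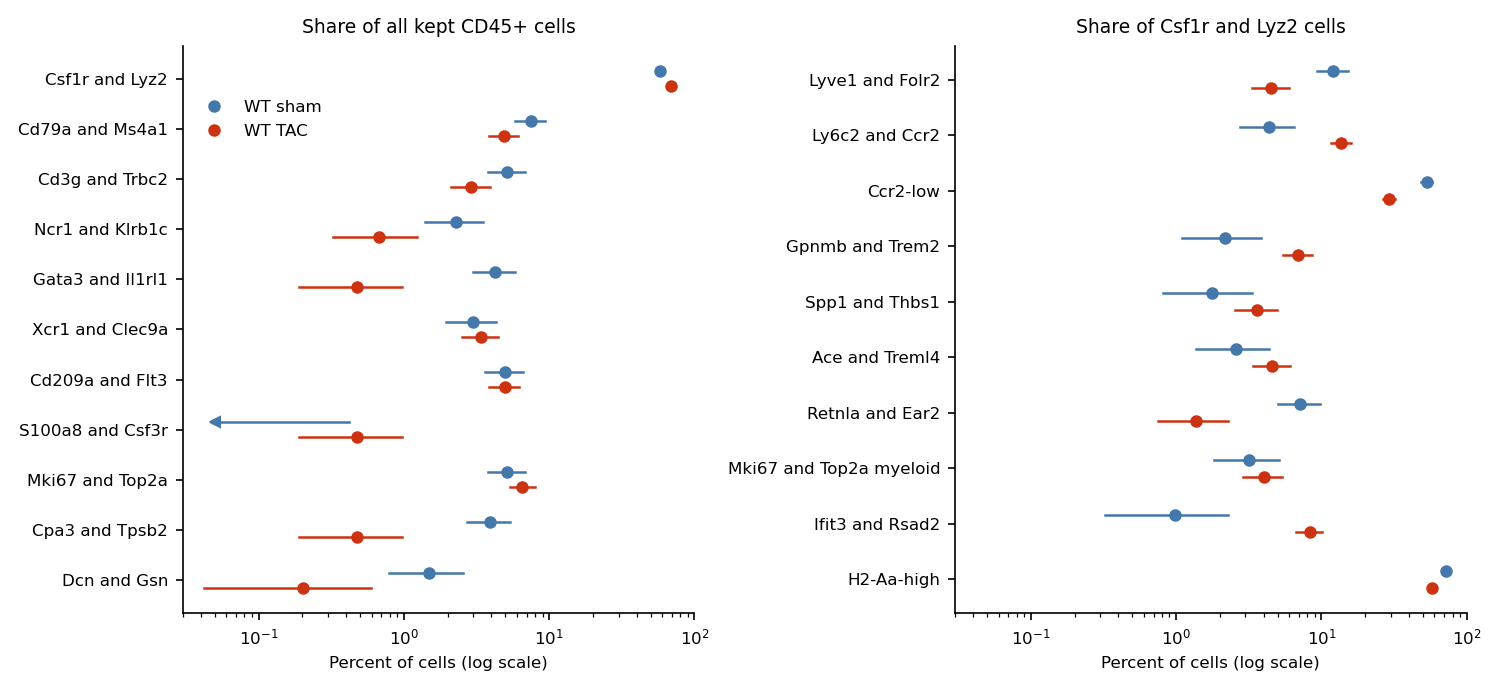
Share of thinned cells inside each gate (horizontal, percent, log scale) in WT sham (blue) and WT TAC (red), of all kept CD45+ cells on the left and of Csf1r and Lyz2 cells on the right. Points are shares and lines exact 95% binomial intervals, the arrow marks a count of 0, and the gates on Gata3 and Il1rl1, Cpa3 and Tpsb2, Ly6c2 and Ccr2, Ifit3 and Rsad2 and Lyve1 and Folr2 have intervals that stand apart.

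Many of the genes with the lowest ratios over all CD45+ cells were genes of mast cells and of fibroblasts. All 6 measured mast cell and basophil genes were at least 2-fold lower after TAC, with a median log2 ratio of -2.77 and a summed level of 4613 CPM in sham and 590 CPM in TAC. Mcpt4, a mast cell chymase, was at 1444 and 157 CPM, and Cma1, another chymase, at 1142 and 169 CPM. Cpa3, carboxypeptidase A of mast cell granules, was at 1002 and 129 CPM, and the tryptase Tpsb2 at 802 and 94.2 CPM. These proteases were 6.43- to 8.68-fold lower with 10 CPM added. Reads of Mcpt4 were found in 48.1% of sham and 53.6% of TAC cells, many of them at a low level. A gate on Cpa3 and Tpsb2, added after the values were seen, held 34 of 872 sham cells (3.90%, 2.72 to 5.41%) and 7 of 1481 TAC cells (0.473%, 0.190 to 0.971%).

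Of 6 measured fibroblast genes, 4 were at least 2-fold lower. Gsn, an actin-severing protein that is abundant in cardiac fibroblasts, was at 621 CPM in sham and 32.1 CPM in TAC, and the matrix proteoglycan Dcn was at 467 and 51.1 CPM. Only 13 sham cells and 3 TAC cells had at least 500 CPM of both, a gate that was also added after the values were seen. Without the cells of these 2 added gates, 46 genes were lower in place of 72, and 39 of the 72 were still among them. Both gates are sparse in a CD45 selection, and whether the selection or the tissue set their number was not tested.

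Among genes that were higher, the type I interferon response had the most members past 2-fold of the lists examined. In all CD45+ cells 15 of 20 measured members of this list were at least 2-fold higher and none was lower at that size, with a median log2 ratio of 1.35 against 0.04 for all genes. In Csf1r and Lyz2 cells 12 of 20 were higher, all 20 had a ratio above 0, the median was 1.15, and the summed level was 1112 CPM in sham and 2890 CPM in TAC. Irf7, the transcription factor that amplifies interferon production, was at 52.9 CPM in sham and 236 CPM in TAC, or 3.92-fold higher with 10 CPM added. Ifit1 and Ifit2, RNA-binding antiviral proteins, were at 7.13 and 17.3 CPM in sham and at 76.7 and 128 CPM in TAC. The antiviral enzyme Rsad2 (viperin) was at 18.7 and 127 CPM, and the ubiquitin-like modifier Isg15 at 38.3 and 156 CPM. In sham, Ifit1, Ifit2, Rsad2 and Isg15 were below the filter for measured genes, and they counted as measured through TAC alone. For this list that rule favours a higher count past 2-fold and a higher median. The summed level does not depend on the filter. The signal transducer Stat2 differed less, at 60.8 and 110.3 CPM, a log2 ratio of 0.76.

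The promoters of some of these genes are shown because interferon acts on many of its targets through a known response element. In the RefSeq promoters (build GRCm38.p6, 250 bases before to 50 after a start site), the core of the interferon-stimulated response element was searched on both strands as GAAA, any pair of letters, then GAAA. Of all 27025 genes with a promoter, 3.99% held it. Of the 24 listed genes 18 had a promoter, so over the list the share is void as a check (fewer than 80% have a sequence), and 11 of the 18 held a match: Ifit1, Ifit3, Ifit3b, Isg15, Rsad2, Oas1a, Oas3, Bst2, Stat2, Ddx58 and Ifih1. Below are stretches of 90 bases, 5′ to 3′ on the gene's strand, from the 5 matching genes of the highest ratio in Csf1r and Lyz2 cells, with the matched letters in capitals (TTTC, a pair, TTTC is the same element read on the opposite strand).
Ifit1 (chr19:34640754-34640843, plus strand): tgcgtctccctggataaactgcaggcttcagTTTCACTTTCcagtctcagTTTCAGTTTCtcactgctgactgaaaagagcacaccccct
Rsad2 (chr12:26456523-26456612, minus strand): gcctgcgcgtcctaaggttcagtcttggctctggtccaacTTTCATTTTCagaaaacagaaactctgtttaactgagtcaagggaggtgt
Ifit3 (chr19:34583350-34583439, plus strand): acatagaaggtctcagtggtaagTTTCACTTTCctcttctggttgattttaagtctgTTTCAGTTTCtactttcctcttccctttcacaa
Isg15 (chr4:156200841-156200930, minus strand): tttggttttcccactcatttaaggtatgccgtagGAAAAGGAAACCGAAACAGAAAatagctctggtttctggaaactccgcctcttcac
Oas3 (chr5:120777685-120777774, minus strand): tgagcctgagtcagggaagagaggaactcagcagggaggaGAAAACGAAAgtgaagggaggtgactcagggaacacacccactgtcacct

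Ifit1 and Ifit3 held 2 matches each, Isg15 held 3 that overlap, and Rsad2 and Oas3 held 1. The first match lay 104 bases before the start site in Ifit1, 120 in Rsad2, 156 in Ifit3, 78 in Isg15 and 75 in Oas3. The stretch of Ifit3b, a near-identical neighbour of Ifit3, has the same letters as that of Ifit3. The promoter letters do not bear on how reads were divided between these genes, which is uncertain. Ifit2 and Irf7 were not among the 11 listed genes with a match. Only 18 of the 24 listed genes had a promoter to search, and whether these included Ifit2 and Irf7 is not given here.

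Within Csf1r and Lyz2 cells the interferon genes were uneven from cell to cell. Irf7 was read in 13.2% of thinned sham cells (10.4 to 16.5%) and 37.9% of TAC cells (34.9 to 40.9%), and Ifit2 in 4.15% (2.59 to 6.27%) and 15.1% (12.995 to 17.5%). In the background set of Cd79a and Ms4a1 cells Ifit2 was read in 1.56% and 1.47% of cells and Irf7 in 9.38% and 14.7%. The summed level of the list per Csf1r and Lyz2 cell had a median of 718 CPM in sham and 1207 CPM in TAC, and its 90th percentile went from 2213 to 6793 CPM. The upper end thus differed more than the middle, and 29.98% of TAC cells lay above the 90th percentile of sham. Cells with at least 100 CPM of both Ifit3 and Rsad2 were 5 of 506 in sham (0.988%, 0.322 to 2.29%) and 85 of 1024 in TAC (8.30%, 6.68 to 10.2%).

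The interferon list had a median above that of all genes in several gates, which overlap in part and are not separate lineages. Within each gate, too, members could count as measured through TAC alone, which favours higher medians for this list. The median log2 ratio of the list was 0.84 in Ccr2-low cells (317 sham and 344 TAC cells), 0.68 in Lyve1 and Folr2 cells (63 and 49), 1.62 in Cd209a and Flt3 dendritic cells (45 and 78), 1.16 in Cd3g and Trbc2 cells (47 and 45) and 1.72 in dividing cells with Mki67 and Top2a (48 and 102). In Cd79a and Ms4a1 cells (90 and 96) only 5 members were measured and their median was 0.08. The per-cell sum in those cells had a median of 374 CPM in sham and 216 CPM in TAC, with 8.82% of TAC cells above the sham 90th percentile. In Lyve1 and Folr2 cells the per-cell median differed little, at 718 and 790 CPM, with 17.4% of TAC cells above that percentile. In Ccr2-low cells it was 747 and 1020 CPM, with 27.3% above. Single genes also differed by gate: Ifit2 was at 5.83 and 153 CPM in Lyve1 and Folr2 cells, at 7.00 and 54.8 CPM in Cd209a and Flt3 cells and at 2.74 and 3.31 CPM in Cd79a and Ms4a1 cells. Irf7 was at 69.1 and 66.9 CPM in Cd3g and Trbc2 cells, so it did not share the list's direction there. In the Cd3g and Trbc2 gate 1 of 47 sham and 5 of 45 TAC cells also passed the Csf1r and Lyz2 limits. Those on Cd209a and Flt3 were passed by 3 and 6, and those on Xcr1 and Clec9a by 0 and 2. Of the dividing cells 14 of 48 in sham and 42 of 102 in TAC were Csf1r and Lyz2 cells. The part of such cells in the interferon values and the ratio between gates were not tested.

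**Figure D3:**
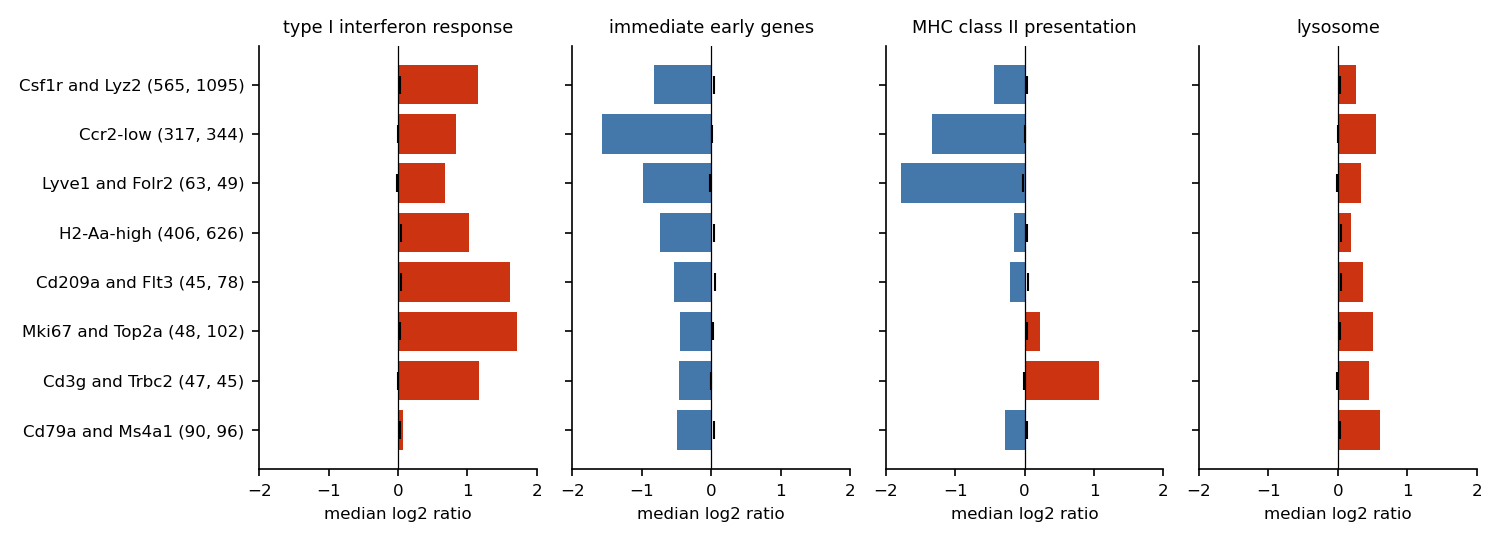
Median log2 ratio of TAC over sham (horizontal) of the measured members of 4 gene lists within each gate, with the number of sham and TAC cells in brackets and the median of all genes measured in that gate as a black tick. Interferon bars are short in Cd79a and Ms4a1 cells, immediate early bars point left in every gate shown, and MHC class II bars are longest in Ccr2-low and Lyve1 and Folr2 cells.

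Other interferon-linked genes were higher too. Slfn4, a myeloid member of the Schlafen family, was at 11.5 CPM in sham and 112 CPM in TAC in Csf1r and Lyz2 cells, and Cxcl10, a chemokine for activated T cells, at 46.0 and 202 CPM. Of 5 measured guanylate-binding and immunity-related GTPases, which answer interferon-gamma, 2 were at least 2-fold higher: Gbp2 was at 24.6 and 77.9 CPM and Ifi47 at 40.2 and 99.9 CPM. The complement factor Cfb was at 12.7 and 57.3 CPM.

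Immediate early genes were lower after TAC. In Csf1r and Lyz2 cells 7 of 18 measured members were at least 2-fold lower, none had a ratio above 0, and the median log2 ratio was -0.82. The summed level was 22233 CPM in sham and 11968 CPM in TAC. Egr1, a zinc finger factor induced by growth signals, was at 2523 and 824 CPM, 3.04-fold lower, and the AP-1 subunit Fosb was at 875 and 299 CPM. Klf2 and Klf4, Krüppel-like factors that restrain macrophage activation, were at 541 and 1031 CPM in sham and at 184 and 360.1 CPM in TAC. Fos itself was at 4627 and 2725 CPM, short of 2-fold. Of 16 listed genes with a RefSeq promoter, Dusp1 and Btg2 held the cyclic AMP response element TGACGTCA, against 2.03% of all genes with a promoter.

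The list had a median below 0 in all 8 gates with enough cells, most so in Ccr2-low cells (median log2 ratio -1.58) and least so in Mki67 and Top2a cells (-0.45). Egr1 was at 3709 CPM in sham and 806 CPM in TAC in Ccr2-low cells. In the lymphoid gates that gene went the other way, at 359 and 477 CPM in Cd79a and Ms4a1 cells and at 658 and 912 CPM in Cd3g and Trbc2 cells. Per cell, the 90th percentile of the summed level in Csf1r and Lyz2 cells was 59508 CPM in sham and 26122 CPM in TAC, and 0.586% of TAC cells lay above the sham value. The inducible chaperones were lower as well: Hspa1a was at 739 CPM in sham and 204.7 CPM in TAC and its near-copy Hspa1b at 146 and 42.5 CPM, and reads of these genes may be shared between them. The constitutive chaperones were near equal, with Hspa8 at 1395 and 1556 CPM and Hsp90ab1 at 1609.8 and 1585 CPM. Of 10 measured heat shock genes 2 were lower at 2-fold and none higher. Hearts were digested with enzymes before capture, and any part of handling in the immediate early and chaperone values was not tested.

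**Figure D4:**
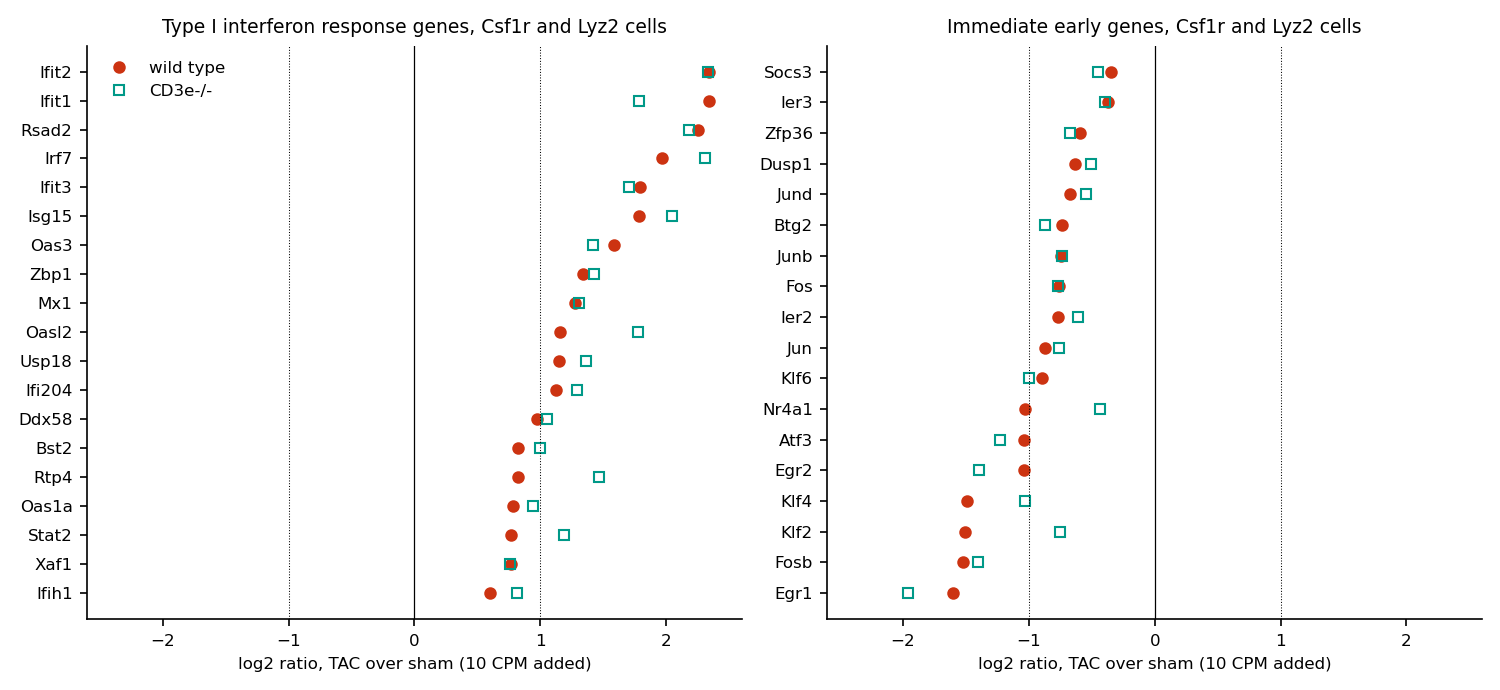
Log2 ratio of TAC over sham (horizontal, 10 CPM added) in Csf1r and Lyz2 cells for the measured type I interferon genes on the left (1 not shown) and immediate early gene on the right, in WT (filled circles) and CD3e-/- mice (open squares). Dotted lines mark 2-fold, all interferon genes shown lie right of 0 and all immediate early genes left of 0 in both genotypes.

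Resident macrophage genes were lower and classical monocyte genes higher. Of 14 measured resident macrophage genes, 5 were at least 2-fold lower after TAC in Csf1r and Lyz2 cells and none was higher. Cd163, the haemoglobin scavenger receptor, was at 263 CPM in sham and 61.1 CPM in TAC and was read in 35.6% and 13.1% of thinned cells. Lyve1, a hyaluronan receptor, was at 179 and 54.5 CPM, the folate receptor Folr2 at 182 and 71.3 CPM, the carbonyl reductase Cbr2 at 398 and 151 CPM and the chemokine Pf4 at 799.6 and 371 CPM. Other members were nearer to equal: Maf, a factor of mature macrophages, was at 572 and 463 CPM and the growth factor Igf1 at 204 and 213 CPM.

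Of 13 measured classical monocyte genes 7 were higher and none lower, with a median log2 ratio of 1.07. Ly6c2, the surface mark of inflammatory monocytes and near-identical to Ly6c1, was at 112 CPM in sham and 402 CPM in TAC, Plac8 at 383 and 858 CPM and the chitinase-like protein Chil3 at 96.5 and 316 CPM. Ccr2 was at 1247 and 1913 CPM. The gates are cut on some of these same genes in the same cells, so their shares are not a second line of evidence. Cells with Ly6c2 and Ccr2 were 4.35% (2.74 to 6.51%) of Csf1r and Lyz2 cells in sham and 13.7% (11.6 to 15.9%) in TAC. Lyve1 and Folr2 cells were 12.1% (9.35 to 15.2%) and 4.49% (3.31 to 5.95%), and Ccr2-low cells were 53.0% (48.5 to 57.4%) and 29.3% (26.5 to 32.2%). Patrolling monocyte genes did not share the higher level of the classical ones. Of 7 measured, 1 was lower at 2-fold, Nr4a1, an immediate early gene as well. Cells with Ace and Treml4 were 2.57% and 4.59%, with overlapping intervals.

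Part of the lower resident signal remained inside the gates. In Ccr2-low cells Cd163 was at 467 CPM in sham and 196 CPM in TAC, and in Lyve1 and Folr2 cells at 951 and 524 CPM. The list as a whole had a median log2 ratio of -0.33 in Ccr2-low cells and -0.29 in Lyve1 and Folr2 cells, against -0.61 over all Csf1r and Lyz2 cells. These medians rest on 17, 18 and 14 measured members in that order. Lyve1 and Folr2 belong to the list and define the gate of that name, so part of its smaller difference was fixed in advance. Cells dividing by Mki67 and Top2a were 3.16% and 4.004% of Csf1r and Lyz2 cells, with overlapping intervals.

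Retnla had the lowest ratio in Csf1r and Lyz2 cells. This secreted protein of alternatively activated macrophages was at 1968 CPM in sham and 333 CPM in TAC, 5.77-fold lower. It was read in 37.7% and 31.2% of thinned cells and in 32.8% and 35.3% of Cd79a and Ms4a1 cells, so the share of cells with a read is at background and the difference lay in the cells that hold much of it. Cells with at least 200 CPM of both Retnla and the ribonuclease Ear2 were 7.11% (5.03 to 9.71%) in sham and 1.37% (0.749 to 2.28%) in TAC. The scale also differed among gates: Retnla was at 128 and 89.6 CPM in Ccr2-low cells and at 2666 and 517 CPM in H2-Aa-high cells. In the few Lyve1 and Folr2 cells Retnla went the other way, from 68.9 to 1020.6 CPM.

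Arg1 had the highest ratio. Arginase 1, which breaks down arginine in wound-type macrophages, was at 5.004 CPM in sham and 204 CPM in TAC, 14.3-fold higher with 10 CPM added, and was read in 0.791% (0.216 to 2.01%) and 8.01% (6.42 to 9.84%) of thinned cells. In all CD45+ cells it was at 31.3 and 154 CPM, and in Cd3g and Trbc2 cells at 198 and 51.4 CPM. Ly6a (Sca-1) was at 9.95 and 132 CPM, the crosslinking enzyme Tgm2 at 25.7 and 168 CPM and Ms4a7, a membrane protein of macrophages, at 171 and 562 CPM. The high-affinity IgG receptor Fcgr1 was at 169 and 349.5 CPM and Fcgr4 at 52.1 and 155 CPM. These genes were widespread or rare in different measure, Tgm2 being read in 22.2% and Ms4a7 in 52.6% of thinned TAC cells.

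MHC class II genes were lower in part of the macrophages. In Csf1r and Lyz2 cells none of 8 measured members passed 2-fold, yet all 8 had a ratio below 0, with a median of -0.44. The invariant chain Cd74 was at 18119 CPM in sham and 12645 CPM in TAC, and the alpha chain H2-Aa at 7108 and 5266 CPM. The per-cell sum of the list differed more, with a median of 41636 CPM in sham and 16953 CPM in TAC, and cells with at least 1000 CPM of H2-Aa were 71.7% (67.6 to 75.6%) and 57.6% (54.5 to 60.7%). The difference was largest in Ccr2-low cells, where H2-Aa was at 5425 and 2094 CPM and the median cell went from 27714 to 1782 CPM, and in Lyve1 and Folr2 cells, where H2-Aa was at 2437 and 498 CPM. It was small in Cd79a and Ms4a1 cells (median log2 ratio -0.28) and in Cd209a and Flt3 cells (-0.22). In Cd3g and Trbc2 cells all 10 measured members were higher, with H2-Aa at 2918 and 5136 CPM. In that gate 1 of the 47 sham and 5 of the 45 TAC cells also passed the Csf1r and Lyz2 limits, 3 and 6 passed those on Cd209a and Flt3, and 0 and 2 those on Xcr1 and Clec9a. Other antigen-presenting cell genes were higher in this gate too: 4 measured cDC1 genes had a median log2 ratio of 1.87, 5 cDC2 genes 1.10 and 5 B cell genes 2.64. Summed over each list, levels were 169 and 611 CPM for cDC1 and 590 and 958 CPM for cDC2 genes. The 12 B cell genes summed to 324 and 593 CPM, a smaller difference than their median. Limits on Cd79a and Ms4a1 were passed by 0 sham and 1 TAC cell of the gate. The part of such cells in the MHC class II values was not tested.

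**Figure D5:**
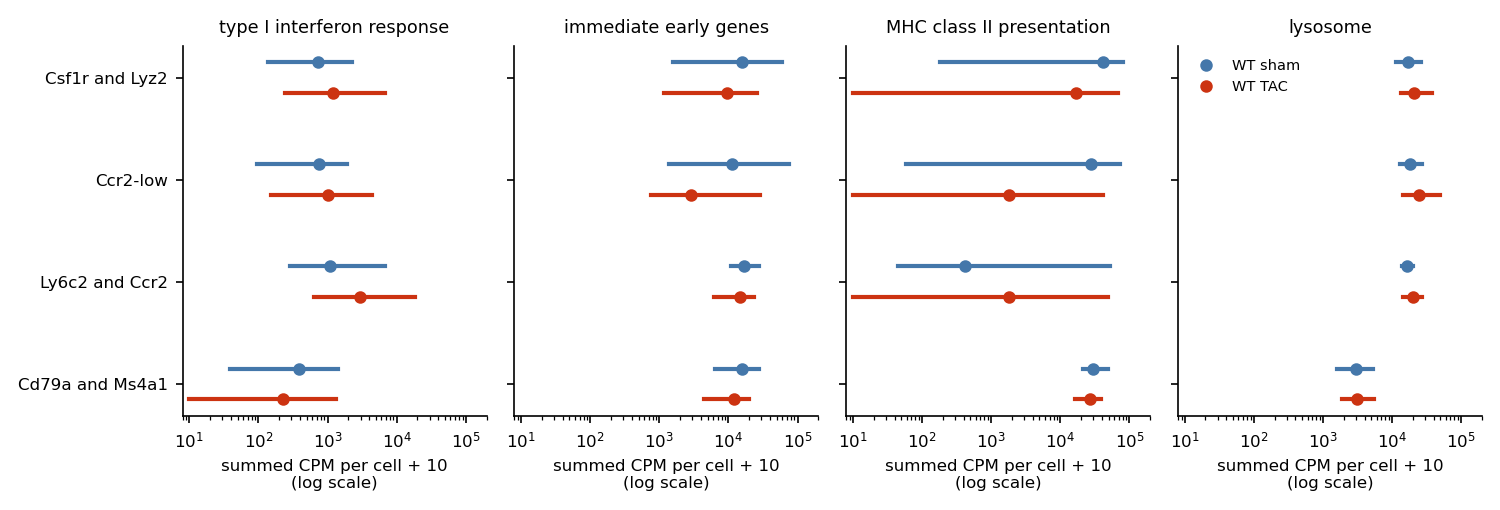
Summed level per thinned cell (horizontal, CPM + 10, log scale) of 4 gene lists in 4 gates, WT sham in blue and WT TAC in red. Points are medians and bars run from the 10th to the 90th percentile over cells of 1 pooled sample, showing the raised upper end of the interferon sum in the macrophage gates and the low MHC class II median of Ccr2-low TAC cells.

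Lysosomal genes were modestly higher as a group. Of 23 measured members 22 had a ratio above 0 in Csf1r and Lyz2 cells, with a median of 0.26, and 1 passed 2-fold. That gene was Ctsd, the aspartic protease cathepsin D, at 627 CPM in sham and 1869.8 CPM in TAC, read in 51.6% (47.1 to 56.0%) and 78.6% (76.0 to 81.1%) of thinned cells. The cysteine proteases Ctsb and Ctss were at 2258 and 2214 CPM in sham and 3807 and 3594 CPM in TAC. In Ccr2-low cells Ctsd was at 530.3 and 4158 CPM and the list's median was 0.56, and 41.3% of the TAC cells there lay above the sham 90th percentile of the summed level. None of the 19 listed genes with a RefSeq promoter held the lysosomal CLEAR element, searched only as an exact form of 10 letters. Only 0.37% of all genes with a promoter held that form, so its absence from 19 genes says little about these promoters. With 19 of 26 matched the share is also void as a check.

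Genes of lipid-associated macrophages also had a higher median in Ccr2-low cells, but this list shares members with the lysosome list and is not independent of it. Ctsd is in both, and was the only lipid-associated member past 2-fold higher in Csf1r and Lyz2 cells. Over all Csf1r and Lyz2 cells the median of 14 members was 0.42, with the lipid receptor Trem2 at 173 and 336 CPM and the lipid carrier Apoe at 10405 and 18233 CPM. In Ccr2-low cells the median was 1.01. There the glycoprotein Gpnmb was at 62.4 and 493 CPM, Trem2 at 211 and 583 CPM and Apoe at 17123 and 34507 CPM. The gate on Gpnmb and Trem2 held 2.17% (1.09 to 3.86%) of sham and 6.93% (5.45 to 8.67%) of TAC cells. Not every member was higher: osteopontin, Spp1, was at 1161 and 618 CPM, with 20.5% of its sham reads in 1 cell, and the fatty acid transporter Cd36 at 339 and 176 CPM.

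Among 13 measured matrix genes 4 were at least 2-fold higher and 1 lower in Csf1r and Lyz2 cells. Thrombospondin 1, Thbs1, which activates latent TGF-beta, was at 102 CPM in sham and 386 CPM in TAC. The membrane-bound collagenase Mmp14 was at 48.5 and 149.8 CPM and the proteoglycan Vcan at 31.4 and 76.7 CPM, while the collagenase Mmp13 was at 119 and 43.4 CPM. Fibronectin, Fn1, was at 852 and 1299 CPM, short of 2-fold.

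Secreted signals were mostly within 2-fold. Of 13 measured chemokines 2 were higher, Cxcl10 and Ccl17, and 1 lower, Pf4. The neutrophil chemokine Cxcl2 was at 1339.8 and 1036 CPM and the monocyte chemokine Ccl2 at 569 and 449 CPM. Interleukin 1 beta, Il1b, was at 449.6 and 487 CPM, and tumour necrosis factor, Tnf, at 98.4 and 49.2 CPM. The interleukin 1 receptor antagonist Il1rn was at 37.3 and 85.2 CPM, the only one of 3 measured inflammatory cytokine genes past 2-fold. Of 7 measured growth factor and repair genes 6 had a ratio above 0, with a median of 0.39, and only Arg1 passed 2-fold. Oncostatin M, Osm, was at 79.4 and 121 CPM, a log2 ratio of 0.55. Areg at 8.24 and 5.98 CPM, Csf1 at 14.96 and 7.97 CPM and Il10 at 2.11 and 3.395 CPM did not reach the level filter in either group. The receptors Ccr1 (49.0 and 138 CPM) and the scavenger receptor Msr1 (168 and 293 CPM) were higher, the first past 2-fold. The endotoxin receptor Tlr4 was at 38.2 and 38.4 CPM, and none of 9 measured genes of Toll-like signalling passed 2-fold.

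In Csf1r and Lyz2 cells none of 24 nuclear oxidative phosphorylation genes (median log2 ratio 0.07), 83 ribosomal protein genes (0.02) and 14 glycolysis genes (0.45) passed 2-fold. For glycolysis the median stood above the 0.04 of all genes and 13 of 14 genes had a ratio above 0, with lactate dehydrogenase Ldha at 249.7 and 388 CPM and the hypoxia factor Hif1a at 80.7 and 170.2 CPM.

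The same operations in CD3e-/- mice share no cells with this comparison. On the 3881 genes measured in WT, 95 (2.45%) were at least 2-fold higher and 86 (2.22%) at least 2-fold lower after TAC in CD3e-/- mice. Between the 2 sham groups 27 genes (0.696%) differed by 2-fold either way, where genotype and pool cannot be told apart. Of the 58 genes higher in WT, 49 (84.5%) were also at least 2-fold higher in CD3e-/- mice and 56 went the same way, and of the 72 lower genes 47 (65.3%) were also lower and 67 went the same way. There, 69 of 3719 genes in Csf1r and Lyz2 cells (1.86%) were higher and 54 (1.45%) lower under the same operations, and 43 of the 53 higher and 26 of the 37 lower WT genes were past 2-fold there too.

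Some values side by side show where the genotypes were near and where not. The interferon list had a median log2 ratio of 1.15 in WT and 1.40 in CD3e-/- Csf1r and Lyz2 cells, and immediate early genes -0.82 and -0.76. Arg1 was at 20.8 and 885 CPM in CD3e-/- sham and TAC. Resident macrophage genes had medians of -0.61 and -0.17, with Folr2 at a log2 ratio of -1.24 in WT and 0.32 in CD3e-/- cells. The CD3e-/- TAC pool also held genes of cavity macrophages such as Saa3 and Prg4 that were low elsewhere, 8 listed genes summing to 1366 CPM against 60.3 CPM in WT sham, 44.6 CPM in WT TAC and 42.8 CPM in CD3e-/- sham, and its part in these values was not tested. Without thinning, Ncr1 and Klrb1c cells were 5 of 835 CD3e-/- sham cells (0.599%) and 12 of 919 CD3e-/- TAC cells (1.31%). This order is opposite to that in WT, but it rests on few cells and was not tested. Gata3 and Il1rl1 cells were 36 (4.31%) and 4 (0.435%), the same order as in WT.

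A few of the most extreme ratios rested on 1 cell. Igha, the heavy chain of IgA, was at 714 CPM in sham and 35.2 CPM in TAC, and 99.7% of the sham reads and 81.5% of the TAC reads came from 1 cell each, and Igkv3-2 likewise had 99.6% of its 51.4 CPM in 1 sham cell. Among Csf1r and Lyz2 cells 82.5% of the TAC reads of Cma1 came from 1 cell, and for Ccl17 (1.37 and 62.3 CPM) 67.2%. The neutrophil genes S100a9 and S100a8 had no read in sham and 55.9 and 47.7 CPM in TAC, so no ratio is given for either, and S100a9 was read in 0.805% of TAC cells. Over all CD45+ cells a single cell held over 20% of the reads of the higher group for 1 of the 58 higher and 9 of the 72 lower genes, and in Csf1r and Lyz2 cells for 2 of 53 and 0 of 37.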

How the data were processed

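CD45+ cells of WT and CD3e-/- hearts were enriched with antibody beads after warm digestion with collagenase and elastase and a density gradient. They were marked with 1 hashtag per group and captured together. The deposited matrix holds counts, whole numbers of reads per gene and cell that the authors made with cutadapt 2.10 and Bowtie2 2.4.2 against GRCm38 (named in the submitters' processing notes). These are reads, not unique molecules. Groups were read from hashtag and the deposited notes. Of 5363 columns 947 were not used: 899 of another hashtag, 40 that the authors called doublets and 8 without a hashtag. No cell barcode was shared (0), and no further doublet caller was run, while 29 sham (2.90%) and 49 TAC cells (3.03%) passed 2 or more of 10 gates. A further 14.9% and 16.2% passed none.

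Reads were summed per group and scaled to CPM. With 1 pooled sample per group there is no test and no p-value. Log2 ratios carry 10 added CPM and were read for genes with at least 50 CPM in either group, and the genes eligible to be named were the 15 with the highest and the 15 with the lowest ratio in each population, up to 4 members of highest level and the extreme ratios of each list, genes that define a gate, sex check genes and genes the study names for these cells. Stat2, Maf, Fcgr4, Mmp14, Vcan and Ldha fall outside this rule and were chosen after their values were seen, and so were the gates on Cpa3 and Tpsb2 and on Dcn and Gsn. Sums have exact Poisson and shares exact Clopper-Pearson 95% intervals, for counting error only. Cells were thinned to 34802 reads, the 10th percentile of cell depth, for shares and per-cell sums, which kept 872 sham and 1481 TAC cells. Gates with fewer than 30 cells in a group got no ratio. The comparison, gates and gene lists were chosen with earlier results of these data known. The script was tested on simulated data. 1 listed interferon response gene is counted in its list but is not reported here by name. Values were computed in Python 3.11.15 with pandas 2.3.3 and numpy 2.4.6, intervals in scipy 1.17.1, and plots drawn in matplotlib 3.10.9. Alternatives were other scalings, added CPM, level filters, gate limits and cell filters.

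The other lists, over all CD45+ cells, gave medians of -0.67 for 7 B cell, -0.87 for 2 T cell, -0.71 for 1 natural killer, -1.00 for 4 type 2 innate lymphoid, -0.10 for 4 cDC1, 0.11 for 7 cDC2, and 0.57 for 2 plasmacytoid genes, while 10 neutrophil genes summed to 75.1 CPM in sham and 225 CPM in TAC. They gave 0.29 for 12 complement, 0.08 for 11 scavenger receptor, 0.09 for 13 S100, 0.07 for 11 iron, 0.17 for 7 chemokine receptor and -0.04 for 5 cell division genes.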

Additional observations from a re-analysis of the deposited data

Results flagged for a closer look

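Ccl17, a chemokine for T cells that is mostly made by dendritic cells, had a log2 ratio of TAC over sham of 2.67 in WT Csf1r and Lyz2 cells and of -1.91 in those of CD3e-/- mice. The opposite direction in the genotypes is what drew attention, and the difference was not tested. In WT TAC 67.2% of the reads came from 1 cell.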

How the results depend on the processing

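No paired analysis was possible because each group was 1 pooled sample, and for the same reason no sample could be left out. Of the counts of genes past 2-fold, 36 values stayed within 1.5 times the reported ones and 12 did not. With 50 CPM added, all CD45+ cells gave 27 higher and 35 lower genes, and Csf1r and Lyz2 cells 28 and 14. A filter of at least 200 CPM gave 18 and 24, and 17 and 17. A filter of at least 10 CPM gave 76 higher and 182 lower genes in all cells and 81 higher in Csf1r and Lyz2 cells, and no filter also gave 182 lower and 81 higher, so that the higher genes were 29.5% of those past 2-fold in place of 44.6%. Leaving out mast cell and fibroblast gene cells, chosen after the data were seen, left 46 lower genes, a higher share of 57.0%, and opposite signs for the mast cell list (median 0.061), the fibroblast list (1.38), Cma1 (0.043), Cpa3 (0.10), Dcn (1.09) and Mcpt4 (0.10). Leaving out each gene's richest cell, also chosen later, turned Igha to 0.40. Differences of shares moved, in percentage points, for Csf1r and Lyz2 cells with limits halved (11.4) or doubled (8.99), Ly6c2 and Ccr2 cells (12.6 and 4.90), Ccr2-low cells doubled (-24.0) and Ifit3 and Rsad2 cells doubled (5.37). Retnla and Ear2 cells with doubled limits moved from -5.75 to -3.06 points, and 6 further values for single shares also moved, by less than 1.5 times or for gates with overlapping intervals. With 50 CPM added the interferon median went from 1.35 to 0.83 in all cells and the classical monocyte median from 1.07 to 0.64 in Csf1r and Lyz2 cells. Leaving aside the settings chosen later, 19 values for list medians and 9 for ratios of single genes moved, with no single gene changing sign. The cell division and scavenger receptor medians, both near 0, changed sign in all cells with the mean of the CPM per cell, to 0.27 and -0.02. Thinning each cell left 52 of the 58 higher and 51 of the 72 lower genes past 2-fold. Spread between hearts could not be measured.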

Other observations

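Some lists had the same direction outside the Csf1r and Lyz2 cells and some did not. Outside them, of 19 measured type I interferon genes 16 were at least 2-fold higher after TAC, with a median log2 ratio of 1.57, and of 18 immediate early genes 7 were at least 2-fold lower, with a median of -0.88. All 7 measured mast cell and basophil genes were lower, with a median of -2.64, as were 4 of 7 type 2 innate lymphoid genes (-1.82) and 4 of 7 fibroblast genes (-1.85). MHC class II genes had a median of 0.24 there, with 9 of 10 above 0, against -0.44 in Csf1r and Lyz2 cells, and cDC1 genes 0.57 against -0.35. Here too a gene could count as measured through either group alone, which favours genes that differ. The differences between the populations were not tested.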
